A study of Mus musculus with 3 samples.

Results

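The genes described here are 9 members of the Notch pathway, out of 31053 genes in the matrix, taken by their symbols. They are the receptors Notch1, Notch2 and Notch3, the ligands Dll1, Dll4 and Jag1, and the transcriptional targets Hes1, Hes5 and Hey1. All 9 were found, each under 1 identifier. They were measured by single-cell RNA sequencing (scRNA-seq) of dissociated mouse brain, in 3 libraries: control, ischemic stroke and hemorrhagic stroke. The paper describes the profiled tissue as striatum. The mice were of the strain labelled C56BL6 and 10 weeks old, with 8 mice per condition and 1 library per condition. Ischemic stroke was made by closing the middle cerebral artery for 90 min, and hemorrhagic stroke by injecting collagenase into the striatum. The sources used here give no time between injury and dissociation for these mice. The matrix counts unique molecular identifiers (UMIs), which tag single RNA molecules, and tells the libraries apart only by a suffix of 1, 2 or 3 on each cell barcode. The labels do not pair suffixes with conditions, so the cells of all 3 conditions were treated as 1 pooled sample and conditions are not compared. With no replicates no test was run, and every 95% interval (exact Poisson for levels and ratios, exact Clopper-Pearson for shares) covers counting error only.

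Notch receptors sit on the cell surface and are activated by ligands of the Delta-like and Jagged families on a neighbouring cell. Activation releases the intracellular part of the receptor, which joins the DNA-binding protein RBPJ in the nucleus and switches on genes of the Hes and Hey families. In the brain the pathway is known for holding back neuronal differentiation of neural progenitors, for its activity in astrocytes, and for shaping arteries and their mural cells. Mural cells are the pericytes and smooth muscle cells that wrap vessels.

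Hes5, a repressor of proneural genes, was found mainly in astrocytes and oligodendrocyte precursors and in almost no vascular cell, and its promoter is shown because it holds the letters of an RBPJ motif. The sequence is the 250 bases before the gene start in RefSeq (GRCm38.p6, chr4:154960673-154960922, plus strand), with the motif GTGGGAA or its reverse complement TTCCCAC in capitals:
Hes5 promoter: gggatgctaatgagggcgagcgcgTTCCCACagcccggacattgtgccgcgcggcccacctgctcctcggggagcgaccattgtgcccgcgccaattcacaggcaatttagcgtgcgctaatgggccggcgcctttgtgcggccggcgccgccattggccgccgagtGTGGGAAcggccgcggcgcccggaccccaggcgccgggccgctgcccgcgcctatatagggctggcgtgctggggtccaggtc
The matches begin 226 and 83 bases before the start, 1 on each strand. Among all 32851 promoter windows of the same length, 5.42% held at least 1 match and 0.161% held 2 or more. Promoters were at hand for 7 of the 9 members (8 promoters, since Dll1 has a pair), and the other 7 windows, those of Notch1, Notch2, Notch3, Dll1, Dll4 and Jag1, held no match to these letters. A match describes the sequence and does not show that a protein binds there. Hes1 and Hey1 were not among them.

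In the GENCODE M21 annotation of GRCm38, all 9 are protein-coding genes. Notch1 (chr2:26457903-26516663), Dll4 (chr2:119325784-119335962) and Jag1 (chr2:137081456-137116644) lie on chromosome 2. Notch2 (chr3:98013527-98150361) and Hey1 (chr3:8663359-8667256) lie on chromosome 3, and Notch3 (chr17:32120820-32166852) and Dll1 (chr17:15367354-15376872) on chromosome 17. Hes5 (chr4:154960923-154962371) is on chromosome 4 and Hes1 (chr16:30064384-30067796) on chromosome 16. Notch3 and Dll1 each overlap 1 gene on the opposite strand, Gm17276 and A930024N18Rik, and the sources used here do not state how the counting used strand.

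Of 35968 barcodes, 31982 had at least 1000 UMIs and at most 30% of them from mitochondrial genes. The libraries held 69270514 to 105957232 UMIs, and kept cells had a median of 5801 to 6389 UMIs by suffix. Between 24 and 43 barcode sequences were shared by each pair of suffixes. Cells were put in classes by raw UMIs of marker genes, none of which is a member or another gene of the pathway list. The classes held 360 progenitor cells (neuroblast markers plus cell cycle genes), 1589 neuroblasts, 339 astrocytes, 865 endothelial cells and 209 mural cells. Their median depths were 10894, 4287, 3086, 5394 and 3614 UMIs. All 22 check markers that no gate used were highest in their own class among the 5, such as Aldoc in astrocytes (2306 CPM against at most 9.20 elsewhere) and Myl9 in mural cells (3596 against at most 10.5). CPM is the number of UMIs of a gene per 1000000 UMIs of all cells in a class. The check markers of progenitors (Hmgb2, Cdk1, Pclaf and Tyms) are genes of dividing cells, and the progenitor gate already requires cell cycle genes. They therefore do not check the identity of that class beyond division. Median UMIs per cell of another class's markers were 0 to 2 within each class, leaving aside the neuroblast and cell cycle genes that progenitors share. Cells that passed more than 1 gate were left out, and these were 16.7% of the cells passing the neuroblast gate but 67.7% of those passing the mural gate. Between 12 cells (mural) and 56 cells (endothelial) lay exactly at a gate's limit, and 5 to 29 unclassed cells lay just below one.

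The vascular classes came almost wholly from 1 library: 848 of the 865 endothelial and 185 of the 209 mural cells carried suffix 3. Their values therefore describe mainly that library, and for them class and library cannot be told apart across the pooled cells. Values within suffix 3 are given for the main levels of these classes. The progenitors (77, 149 and 134 cells by suffix), neuroblasts (482, 603 and 504) and astrocytes (65, 105 and 169) came from all 3 libraries.

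The 9 genes divided between the classes. By the fold of a class over the mean of the other 4, computed on CPM + 10, no member was at least 2-fold higher in progenitors, where 5.51% of the 13613 genes with at least 20 UMIs were. In neuroblasts it was again 0 of 9 members, against 5.91% of genes. In astrocytes it was 3 of 9 (Hes5, Notch2 and Dll1), against 7.92%. In endothelial cells it was 2 of 9 (Dll4 and Hey1), against 8.57%, and in mural cells 4 of 9 (Hes1, Notch3, Jag1 and Notch2), against 7.16%. The Dll1 call, at 2.07-fold, was not stable and rested on few cells. It passed to progenitors (2.13-fold, with 1.31-fold in astrocytes) after each cell was thinned to 1000 UMIs, and also when only astrocytes with no cell cycle UMI were kept, a choice made after the values were seen (2.25-fold in progenitors, 0.906-fold in astrocytes). Thinning weights every cell equally as well, and thinned Dll1 rested on 12 UMIs in progenitors and 7 in astrocytes. Its shift therefore does not show an effect of depth alone. Thinning also put Notch1 past 2-fold in mural cells (2.04-fold) and took Notch2 out there. With 50 in place of 10 added to the CPM, the calls left were Hes5 in astrocytes, Dll4 in endothelial cells, and Notch3 and Hes1 in mural cells. The median log2 fold of the members was -1.52 in progenitors and -1.81 in neuroblasts, where the medians over all genes were -0.09 and -0.02. It was 0.46 in astrocytes, 0.30 in endothelial cells and 0.57 in mural cells, with -0.04, -0.27 and -0.24 over all genes. In a pooled sample, fewer molecules of a gene per cell and fewer cells that use the gene give the same CPM, so shares of cells with a UMI are given as well.

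**Figure D1:**
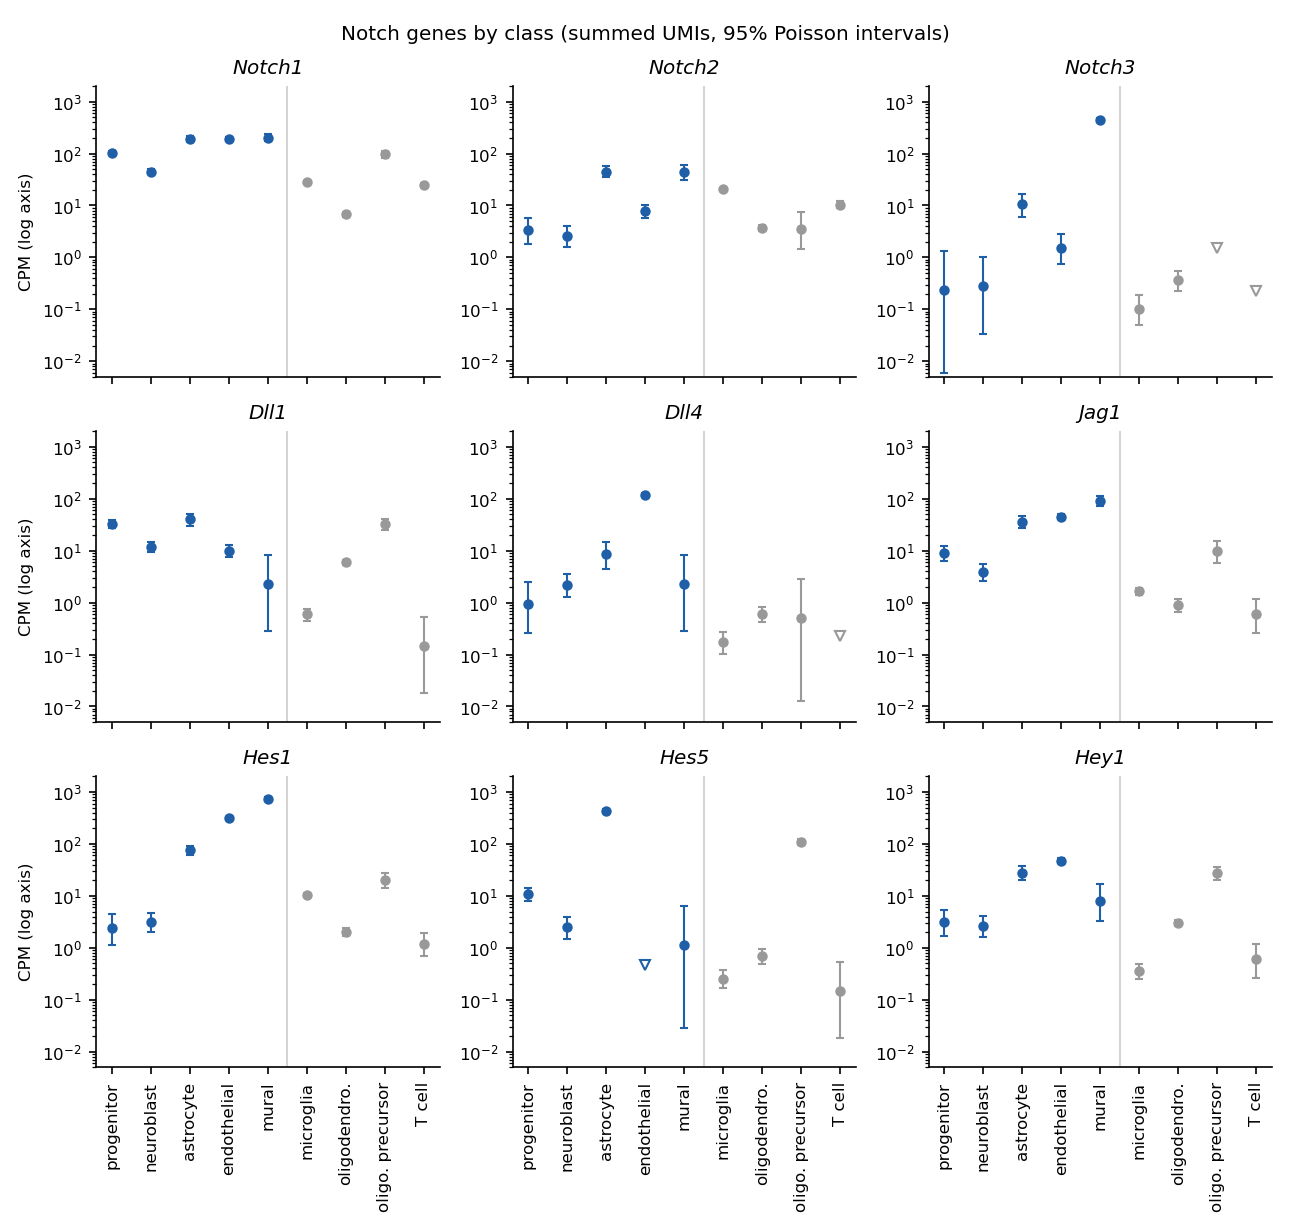
Level of each of the 9 genes (CPM of summed UMIs, log axis) in the 5 gated classes (blue) and in 4 other brain and immune classes (grey). Bars are exact Poisson 95% intervals, and an open triangle marks the upper limit where no UMI was counted. Notch3 stands at 447 CPM in mural cells, Dll4 at 119 CPM in endothelial cells and Hes5 at 428 CPM in astrocytes.

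Among the receptors, Notch1, a receptor of many tissues, could not be told apart between the 3 classes with the most at full depth. It reached 202 CPM in mural cells (95% interval 174 to 235), 193 CPM in endothelial cells (183 to 204) and 191 CPM in astrocytes (170 to 214), and the ratios between neighbours in this order, 1.05 (0.890 to 1.23) and 1.01 (0.890 to 1.15), both included 1. Thinned to 1000 UMIs per cell in a single random draw, they held 234, 160 and 133 CPM, from 49, 138 and 45 UMIs. Mural cells were then above endothelial cells (ratio 1.47, 1.04 to 2.05) and astrocytes (ratio 1.77, 1.15 to 2.71). Thinning also weights every cell equally, which gives the shallower pericytes a larger part of the mural value. They held 40 of the 49 UMIs (344.8 CPM), and smooth muscle cells 8 (100 CPM). These ratios therefore do not show an effect of depth alone. At full depth progenitors followed with 103 CPM (93.1 to 113), which was 2.31 times (1.99 to 2.68) the 44.4 CPM of neuroblasts (39.7 to 49.5). A Notch1 UMI was found in 55.8% of progenitors and 15.6% of neuroblasts. Progenitors were the deeper class, and after thinning the shares were 9.44% and 3.78% and the levels 108 and 39.6 CPM. By suffix, Notch1 was 90.1, 82.6 and 127 CPM in progenitors, and 35.0, 43.4 and 54.8 CPM in neuroblasts, so progenitors were higher in each of the 3 libraries. Astrocytes held 173, 197 and 193 CPM. Microglia and T cells, which also use this receptor at low levels, were at 28.5 and 24.8 CPM, and oligodendrocytes at 6.77 CPM. Mural cells held 95.9 CPM in the 22 cells of suffix 2 (49.6 to 168) and 222 CPM in the 185 cells of suffix 3 (189 to 259). The cell mix differed between these libraries. Of the 22 cells, 20 were smooth muscle cells, while suffix 3 held 114 pericytes, which had more Notch1, and 59 smooth muscle cells. Within smooth muscle cells the levels were 74.5 CPM (34.1 to 141) in suffix 2 and 123 CPM (89.5 to 165) in suffix 3, with overlapping intervals. Endothelial cells of suffix 3 held 193 CPM.

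Notch2, a receptor known in glia and vascular muscle, was highest in astrocytes at 45.1 CPM (35.1 to 57.1) and in mural cells at 43.7 CPM (30.9 to 59.99), and these did not differ beyond counting error (ratio 1.03, 0.685 to 1.58). Endothelial cells held 7.83 CPM (5.83 to 10.3), progenitors 3.35 (1.83 to 5.62) and neuroblasts 2.63 (1.58 to 4.10). Microglia, at 20.9 CPM, lay above these last 3 classes. The astrocyte value differed between libraries: 38.0 CPM (17.4 to 72.1) in suffix 1, 17.5 (7.03 to 36.0) in suffix 2 and 59.3 (44.4 to 77.6) in suffix 3. Within suffix 3 mural cells held 46.3 CPM, which did not differ from astrocytes beyond counting error (ratio 1.28, 0.818 to 2.03), and endothelial cells 7.93 CPM. Notch2 was also higher in suffix 3 in microglia, at 49.7 CPM against 17.6 and 15.6, and the part of the library in the astrocyte level was not tested.

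Notch3, the receptor of vascular smooth muscle and pericytes, was the most restricted receptor among the 5 classes. It reached 447 CPM (404 to 494) in mural cells, with a UMI in 67.9% of them, a median of 2 UMIs in those cells and up to 11. Astrocytes came next with 10.5 CPM (5.98 to 17.0), so that mural cells were 42.8 times higher (26.0 to 75.6). Endothelial cells held 1.53 CPM (0.736 to 2.82), neuroblasts 0.277 and progenitors 0.239. The last pair rests on 2 UMIs and 1 UMI, and the T cells and oligodendrocyte precursors held none. Within suffix 3 the levels were 476 CPM in mural cells and 6.72 CPM in astrocytes, and mural cells of suffix 2 had 296 CPM (208 to 408). Mural cells were therefore the highest class in both libraries with enough of them.

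Of the ligands, Dll1, which neural progenitors are known to display, had its 2 highest levels in the astrocyte gate and in progenitors. The levels were 39.9 CPM (30.5 to 51.2) and 32.5 CPM (27.3 to 38.5), with a ratio of 1.23 (0.891 to 1.67). The shares of cells ran the other way, since 25% of progenitors had a Dll1 UMI but 7.08% of astrocytes, and in the 24 astrocytes with a UMI the median was 2 UMIs. Thinned to 1000 UMIs, progenitors held 33.3 CPM and astrocytes 20.6 CPM, which reverses the order of the pair, but from 12 and 7 UMIs. Neuroblasts had 11.6 CPM (9.27 to 14.4) and endothelial cells 9.97 CPM (7.70 to 12.7), which overlapped. Mural cells had 2.30 CPM from 2 UMIs. Progenitors held 18.9, 40.3 and 33.2 CPM by suffix and neuroblasts 7.58, 11.9 and 15.4 CPM, so progenitors were above neuroblasts in every library, with overlapping intervals in suffix 1. Oligodendrocyte precursors, at 32.3 CPM, were close to progenitors, whereas T cells had 0.149 CPM and microglia 0.592 CPM.

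Most Dll1 UMIs of the astrocyte class lay in few cells with cell cycle UMIs in suffixes 2 and 3, but not in suffix 1. These groups of astrocytes were set after the values were seen, so they are a description. The 300 astrocytes with no UMI of the 8 cell cycle genes held 11.8 CPM of Dll1 (6.30 to 20.2), with progenitors 2.75 times (1.55 to 5.29) above them, and the 18 cells of the gate with 5 or more held 115 CPM (78.7 to 162). Among the 300, the 59 of suffix 1 held 44.8 CPM (19.3 to 88.2), from 8 UMIs, and those of suffixes 2 and 3 held 5.44 CPM (1.76 to 12.7), from 5 UMIs. The same 18 cells held 676 CPM of Hes6, a Hes family member known to promote neurogenesis and to counteract Hes1, against 80.1 CPM, and 89.9 CPM of Jag1 against 16.4 CPM. Hes5 was lower in them, at 227 CPM (174 to 290) against 516 CPM (474 to 560). These cells were deep, with a median of 15891 UMIs against 2807.5, and Aldoc, a marker of mature astrocytes, was at 25.2 CPM in them against 3042 CPM. Mlc1, another astrocyte marker, was at 32.4 against 479 CPM, so these check markers go against the name astrocyte for the 18 cells, although they passed its gate. The 21 cells of the gate with 1 to 4 cell cycle UMIs, where Aldoc was at 1165 CPM, also had a high Dll1 level, 104 CPM (59.5 to 169). No Dll1 UMI was seen in the 151 astrocytes with a UMI of Agt, the angiotensinogen gene that astrocytes use, which allows up to 6.29 CPM. The 188 astrocytes without Agt held 57.9 CPM (44.3 to 74.4). They include every astrocyte with a Dll1 UMI, with or without cell cycle UMIs, so the Dll1 values of the Agt and cell cycle splits rest on shared cells. They were also deeper (median 4077.5 against 2441 UMIs) and lower in Aldoc (1880 against 3245 CPM).

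Dll4, the ligand of arteries and sprouting vessels, was found mainly in endothelial cells, at 119 CPM (111 to 128) with a UMI in 41.0% of them. Astrocytes followed at 8.50 CPM (4.52 to 14.5), 14.0 times lower (8.16 to 26.5). Mural cells (2.30 CPM), neuroblasts (2.21 CPM) and progenitors (0.956 CPM) came next, neighbours from astrocytes downward could not be told apart, and T cells had no UMI, which allows up to 0.224 CPM. Within suffix 3 the endothelial level was 120 CPM and the astrocyte level 8.96 CPM. Microglia and oligodendrocytes of suffix 3, the library with the vascular cells, had 1.19 and 1.25 CPM, against at most 0.245 CPM in the other libraries.

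Jag1, a ligand of vessel walls and glia, was highest in mural cells at 90.9 CPM (71.9 to 113), 2 times (1.54 to 2.57) the 45.4 CPM of endothelial cells (40.4 to 50.9). The astrocyte level of 35.9 CPM (27.1 to 46.8) did not differ from the endothelial one beyond counting error (ratio 1.26, 0.945 to 1.72). It was carried in large part by few cells, since the 300 astrocytes with no cell cycle UMI held 16.4 CPM (9.71 to 25.9), and endothelial cells were 2.77 times (1.72 to 4.74) above these. Progenitors held 8.85 CPM (6.23 to 12.2) and neuroblasts 3.87 CPM (2.57 to 5.60). In mural cells the 2 libraries with enough cells held 95.9 CPM in suffix 2 and 89.8 CPM in suffix 3, but smooth muscle cells made up most of the first only. Within smooth muscle cells the levels were 99.4 CPM (51.3 to 174) in suffix 2 and 120 CPM (87.1 to 162) in suffix 3. Within suffix 3 endothelial cells held 45.2 CPM and astrocytes 34.7 CPM. After thinning the cells of all libraries, mural cells held 62.2 CPM (33.1 to 106) and endothelial cells 40.5 CPM (28.2 to 56.3). These rest on 13 and 35 UMIs and have overlapping intervals. Microglia, oligodendrocytes and T cells were between 0.596 and 1.64 CPM.

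**Figure D2:**
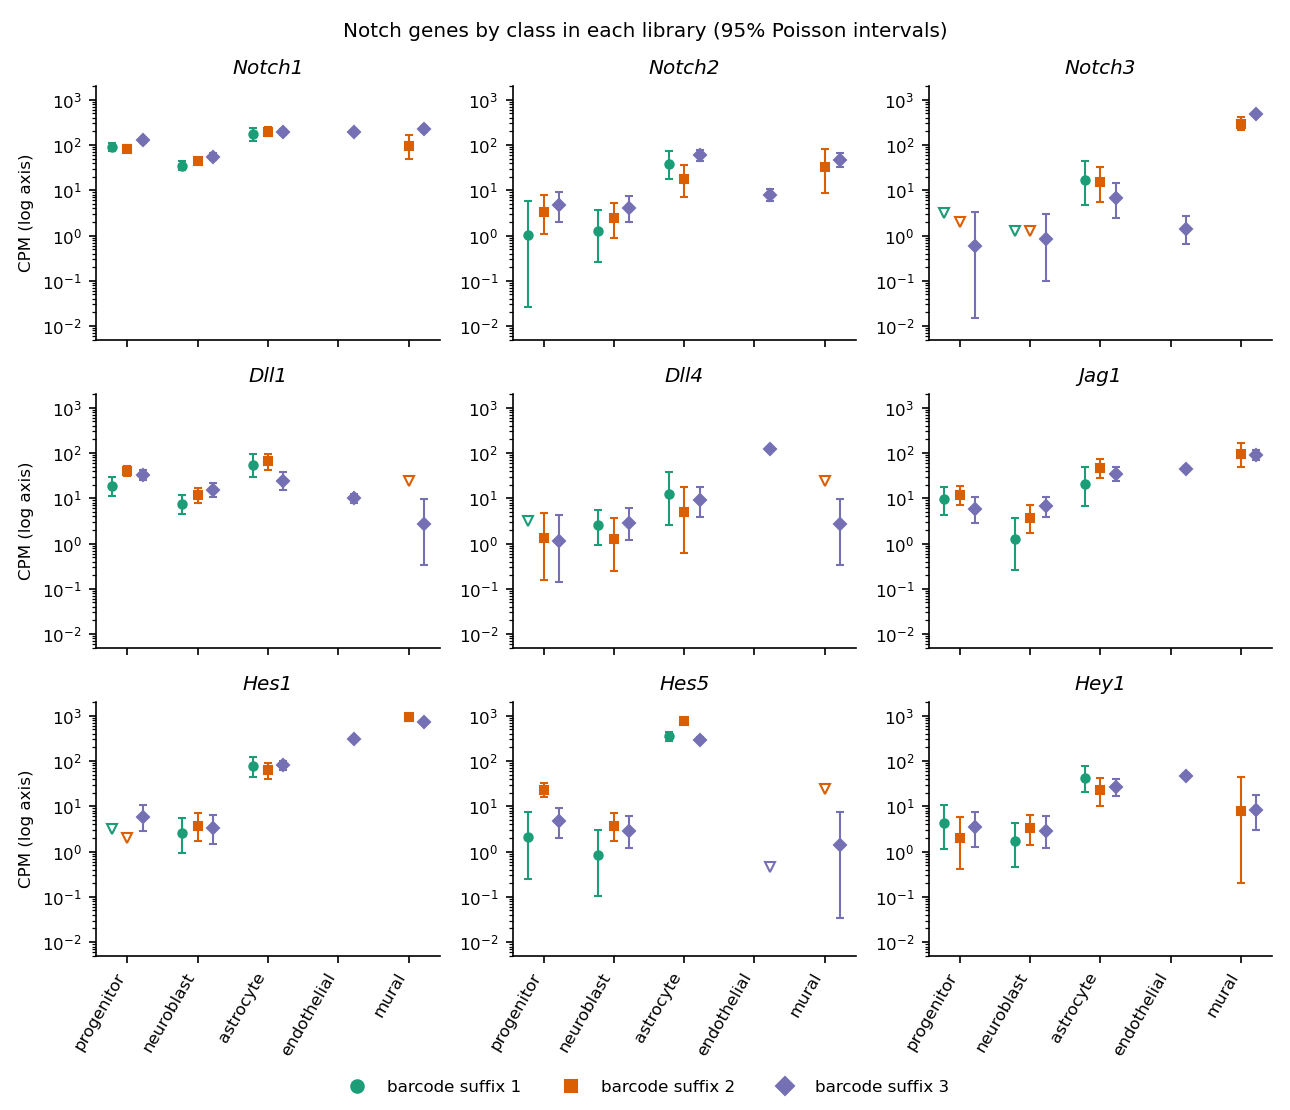
Level of each gene (CPM, log axis) by class in the library of each barcode suffix, shown where the library had at least 20 cells of the class; bars are exact Poisson 95% intervals and open triangles upper limits for 0 UMIs. Endothelial cells have a value in suffix 3 only, and Hes5 in astrocytes runs from 293 CPM in suffix 3 to 772 CPM in suffix 2.

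Among the targets, Hes1, a repressor that many signals besides Notch also switch on, was lowest in the neural and highest in the vascular classes. It was 734 CPM (678 to 793) in mural cells, 314 CPM (300 to 327) in endothelial cells and 75.2 CPM (62.0 to 90.2) in astrocytes. Neuroblasts held 3.18 CPM (2.02 to 4.77) and progenitors 2.39 CPM (1.15 to 4.40). The mural to endothelial ratio was 2.34 (2.14 to 2.56), the endothelial to astrocyte ratio 4.17 (3.46 to 5.08) and the astrocyte to neuroblast ratio 23.6 (15.0 to 38.7), while neuroblasts and progenitors could not be told apart. A UMI was found in 67.2% of endothelial cells and 66.0% of mural cells but in 2.22% of progenitors, the deepest of the classes. All 10 Hes1 UMIs of progenitors lay in suffix 3 (5.83 CPM), with none in the 77 and 149 progenitors of suffixes 1 and 2. Hes1 was also higher in suffix 3 in microglia (32.7 CPM against 6.74 and 7.03). In oligodendrocyte precursors it was 62.2 CPM in suffix 3 (31.0 to 111, from 11 UMIs), against 12.1 CPM in suffix 1 and 22.6 CPM in suffix 2. The suffix 3 interval overlapped that of suffix 2 (12.4 to 38.0). The part of the suffix 3 library in the class levels was not tested. Within suffix 3 the first 3 classes kept their order, with 709 CPM in mural, 312 CPM in endothelial and 80.6 CPM in astrocyte cells, and progenitors (5.83 CPM) and neuroblasts (3.32 CPM) followed. The 22 mural cells of suffix 2 held 911 CPM (752 to 1095).

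Hes5 reached 428 CPM (396 to 462) in astrocytes, with a UMI in 49.9% of them. That was 39.8 times (29.4 to 55.1) the 10.8 CPM of progenitors (7.85 to 14.4). Neuroblasts held 2.49 CPM (1.48 to 3.94), mural cells 1.15 CPM from 1 UMI, and endothelial cells none in 865 cells, which allows up to 0.460 CPM. Astrocytes and vascular cells thus stood in opposite order for the pair of Hes genes. Oligodendrocyte precursors were the other class with Hes5, at 108 CPM (93.5 to 123) and 22.9% of cells. Microglia, oligodendrocytes and T cells lay between 0.149 and 0.689 CPM. In astrocytes the level was 355 CPM (283 to 439) in suffix 1, 772 CPM (689 to 863) in suffix 2 and 293 CPM (259 to 331) in suffix 3, so suffix 2 stood above the other 2 beyond counting error. The shares of astrocytes with a UMI were 49.2% (36.6 to 61.9), 58.1% (48.1 to 67.7) and 45.0% (37.3 to 52.8), with overlapping intervals. The cells differed widely, with a median of 2 UMIs in the 169 astrocytes that had any and up to 52 in 1 cell.

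In progenitors the 45 Hes5 UMIs lay in 12 of 360 cells, and 1 cell of suffix 2 held 26 of them. Without that cell the level was 4.57 CPM (2.75 to 7.14) in place of 10.8 CPM.

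Hey1, a target known in arterial endothelium and glia, was highest in endothelial cells at 47.3 CPM (42.1 to 52.8), followed by astrocytes at 28.1 CPM (20.3 to 37.9), with a ratio of 1.68 (1.22 to 2.37). Mural cells held 8.05 CPM (3.24 to 16.6), progenitors 3.11 CPM (1.65 to 5.31) and neuroblasts 2.63 CPM (1.58 to 4.10), and neighbours among these 3 could not be told apart. Oligodendrocyte precursors were at 27.1 CPM (20.3 to 35.5), near astrocytes. In astrocytes the values by suffix, 42.2, 22.5 and 26.9 CPM, had overlapping intervals. Within suffix 3 endothelial cells held 47.7 CPM, 1.78 times (1.17 to 2.81) the astrocyte level, and mural cells 8.17 CPM.

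Within the endothelial class, cells were split by 6 arterial marker genes that are not members. The 135 arterial cells (at least 2 of these genes) had a median of 7864 UMIs and the 568 cells with none a median of 4895, and suffix 3 held 131 and 556 of them. Hey1 was 104 CPM (89.4 to 121) in arterial cells and 25.1 CPM (20.1 to 30.9) in the others, a ratio of 4.17 (3.20 to 5.45), and Jag1 was 92.3 against 29.96 CPM, a ratio of 3.08 (2.38 to 3.99). Dll4 differed less, at 158 against 105 CPM (ratio 1.51, 1.28 to 1.77), as did Notch1, at 245 against 173 CPM (ratio 1.41, 1.24 to 1.61). Dll1 was 17.0 against 7.20 CPM (ratio 2.36, 1.33 to 4.22). Hes1 went the other way, with 174 CPM in arterial and 399 CPM in the other cells (ratio 0.437, 0.383 to 0.496). Except for Dll1, these directions held after thinning to 1000 UMIs, where Hey1 was 170 against 47.5 CPM and Hes1 237 against 419 CPM. Thinned Dll1 was 14.8 against 8.80 CPM, from 2 and 5 UMIs, too few to give a direction. The 162 endothelial cells with exactly 1 arterial gene lay between the groups for Hes1 (266 CPM) and Hey1 (35.1 CPM), and at 28.6 CPM near the cells with none for Jag1.

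Within the mural class, 80 smooth muscle cells (at least 10 UMIs of Acta2, Tagln and Myh11) were set beside 116 pericytes. Hes1 was 931 CPM (847 to 1021) in smooth muscle cells and 485 CPM (416 to 562) in pericytes, a ratio of 1.92 (1.61 to 2.30), and Jag1 was 115 against 63.7 CPM (ratio 1.81, 1.10 to 3.08). Notch1 was higher in pericytes, at 330 CPM (273 to 394) against 111 CPM (83.6 to 145), a ratio of 0.337 (0.240 to 0.469) for smooth muscle over pericyte. Notch3 was 396 CPM (342 to 456) in smooth muscle cells and 515 CPM (444 to 595) in pericytes, a ratio of 0.768 (0.624 to 0.944), and that direction turned to 1.27 when cells passing more than 1 gate were kept. Smooth muscle cells came from suffix 2 (20 cells) and suffix 3 (59 cells), and pericytes from suffix 3 (114 of 116). Within suffix 3 alone Hes1 was 952 against 484 CPM and Notch1 123 against 330 CPM. Notch3 there was 434 CPM (368 to 508) against 517 CPM (446 to 598), with overlapping intervals. Smooth muscle cells were also deeper, with a median of 6346 UMIs against 3085. After thinning, Hes1 was 862.5 against 517.2 CPM and Notch1 100 against 344.8 CPM. Thinned Notch3 was 512.5 against 551.7 CPM, a smaller gap. Thinned Jag1 was 100 against 43.1 CPM, from 8 and 5 UMIs.

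**Figure D3:**
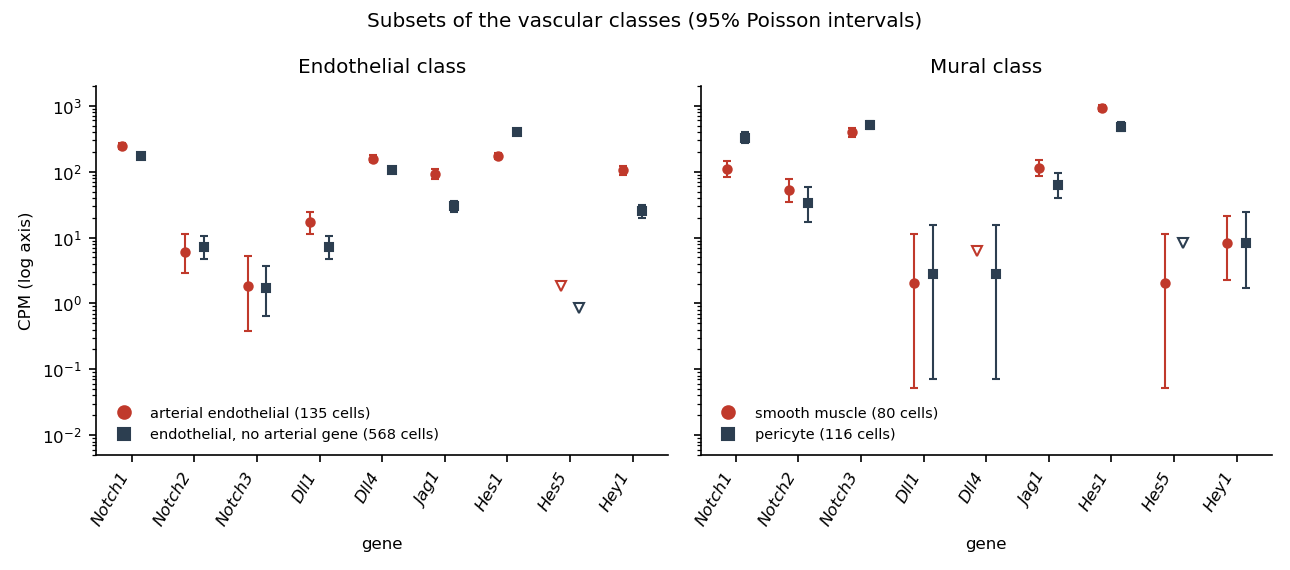
Level of each gene (CPM, log axis) in arterial and other endothelial cells (left) and in smooth muscle cells and pericytes (right), with exact Poisson 95% intervals and open triangles for upper limits where no UMI was counted. Hey1 and Jag1 stand higher and Hes1 lower in arterial cells, and Notch1 stands at 330 CPM in pericytes against 111 CPM in smooth muscle cells.

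Astrocytes with and without an Agt UMI, with median depths of 2441 and 4077.5 UMIs, were also compared for the targets. Hes5 was 526 CPM (463 to 595) with Agt and 384 CPM (347 to 423) without, a ratio of 1.37 (1.17 to 1.61). The direction depended on the library: with Agt the level was 565, 551 and 489 CPM by suffix, whereas without Agt it was 866 CPM in suffix 2 and 228 CPM in suffix 3. Hey1 was 48.2 against 19.0 CPM (ratio 2.54, 1.33 to 4.87), but 33.1 against 42.6 CPM after thinning, from 5 and 8 UMIs. These thinned counts are too few to give a direction. By suffix, Hey1 was 50.1 CPM with Agt and 10.7 CPM without in suffix 2, and 40.4 and 22.4 CPM in suffix 3. The intervals overlapped in both. The Hes5 direction thus changed with the library, while thinning did not settle that of Hey1. Jag1 was 18.9 CPM with Agt and 43.7 CPM without (ratio 0.432, 0.186 to 0.893), and 26.5 and 21.3 CPM after thinning, from 4 UMIs in each group. The group without Agt also includes every cell of the gate with a Dll1 UMI, and how the cells with cell cycle UMIs divide by Agt is not given here. In cells of the gate with 5 or more cell cycle UMIs, Hes5 was lower (227 against 516 CPM in those with none) and Jag1 higher (89.9 against 16.4 CPM). Values of the Agt split without such cells are not given here, so their part in these ratios is not known.

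Progenitors with a Dll1 UMI carried more Hes6 and Notch1 and less Dcx. Of the 360 progenitors, 90 had a Dll1 UMI, and these were deeper (median 13825.5 UMIs against 10112). Hes6 was 322 CPM (292 to 354) in them and 175 CPM (160 to 191) in the other 270, a ratio of 1.84 (1.62 to 2.10). Notch1 was 134 against 88.3 CPM (ratio 1.52, 1.24 to 1.84), and Dcx, a marker of migrating neuroblasts, was lower, at 182 against 296 CPM (ratio 0.616, 0.531 to 0.712). After thinning, Notch1 was 189 against 81.5 CPM, Hes6 356 against 178 CPM and Dcx 211 against 367 CPM. By suffix, Hes6 was 184, 350 and 339 CPM with Dll1 and 186, 162 and 178 CPM without, so the difference was absent among the 11 cells of suffix 1.

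Hes1 did not differ detectably between progenitors with and without Dll1, from 3 UMIs and 7 UMIs (ratio 0.943, 0.157 to 4.13). Hes5 was 30.6 CPM with Dll1 and 1.74 CPM without, a ratio of 17.6 (6.94 to 57.1), but it rested on the cell with 26 UMIs named above, which also had 1 Dll1 UMI. Without that cell the ratio was 6.28 (2.14 to 22.3), from 14 UMIs in 6 cells, and after thinning a single UMI was left.

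In neuroblasts 67 of 1589 cells had a Dll1 UMI. Notch1 was 97.8 CPM (69.9 to 133) in them and 41.2 CPM (36.5 to 46.3) in the others, a ratio of 2.37 (1.66 to 3.32), and 89.6 against 37.5 CPM after thinning, the first from 6 UMIs. Dcx was lower with Dll1, at 460 against 682 CPM (ratio 0.674, 0.580 to 0.780), but the gap was smaller after thinning, at 612 against 709 CPM. Dcx is also in the marker list that gates both progenitors and neuroblasts. Hes6 was 269 against 133 CPM (ratio 2.02, 1.64 to 2.47). After thinning it was 149 against 132 CPM. Few Hes6 UMIs were then left in the 67 cells with Dll1, so a loss of the difference is not shown. Both with and without Dll1, these cells had at most 1 cell cycle UMI by their gate.

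**Figure D4:**
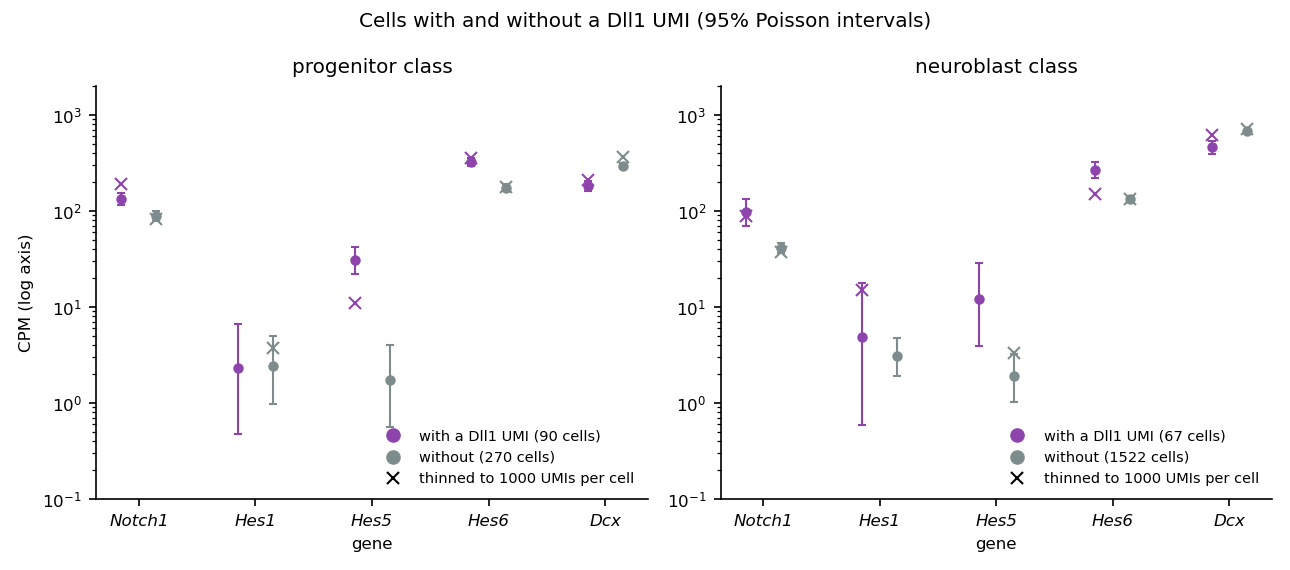
Levels (CPM, log axis) of Notch1, Hes1, Hes5, Hes6 and Dcx in progenitors (left) and neuroblasts (right) with and without a Dll1 UMI; circles are all UMIs with exact Poisson 95% intervals, and crosses are values after thinning to 1000 UMIs per cell, not drawn at 0. Notch1 stands higher with Dll1 in both classes, at 134 against 88.3 CPM and 97.8 against 41.2 CPM.

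The other genes of the pathway, 48 in all by role, put the members in context, and 43 of them had at least 20 UMIs over the 5 classes. In progenitors 2 of 43 were at least 2-fold higher (Hes6 and Neurl1b, a ubiquitin ligase gene acting on ligands, 31.1 CPM, 25.97 to 36.9) and in neuroblasts 1 (Maml3, a coactivator of the Notch nuclear complex, 88.1 CPM, 81.4 to 95.2). In astrocytes 5 were (Hes6, Lfng, Dner, Dtx1 and Dlk1), in endothelial cells 5 (Jag2, Adam10, Mfng, Notch4 and Psen2) and in mural cells 5 (Nrarp, Dtx3, Heyl, Hey2 and Dtx4). The shares, from 2.33% to 11.6%, stand beside the 5.51% to 8.57% of all genes given above. The median log2 folds of the 43 were -0.40, -0.22, 0.11, -0.30 and -0.13 in this order of classes.

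Hes6 was 221 CPM (207 to 235) in progenitors, 220 CPM (197 to 244) in astrocytes and 141 CPM (132 to 149.8) in neuroblasts. The astrocyte level lay mostly in the cells with cell cycle UMIs described above. The 300 astrocytes with none held 80.1 CPM, below neuroblasts. Without the cells that had such UMIs, Hes6 would not be past 2-fold in astrocytes. Jag2, the other Jagged ligand, reached 131 CPM (123 to 140) in endothelial cells and at most 4.60 CPM elsewhere. Notch4, the endothelial receptor, was 45.1 CPM (40.1 to 50.6) there and at most 9.41 CPM in the other classes. Adam10, which makes the outer cut in activated receptors, was 126 CPM (118 to 135) in endothelial cells and 29.9 to 49.2 CPM in the others.

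Among targets, Nrarp, a feedback inhibitor, was 224 CPM (194 to 258) in mural cells and 83.6 CPM in astrocytes. Dtx3, a relative of the Deltex ubiquitin ligases that was listed under endocytosis and turnover and not as a target, was 216 CPM (186 to 249) in mural cells. Rbpj itself was not 2-fold higher in any class, but ran from 27.8 CPM (23.9 to 32.1) in endothelial cells to 66.0 CPM (60.2 to 72.2) in neuroblasts. The Fringe genes, whose enzymes add sugars to Notch receptors, differed by class: Lfng was highest in astrocytes at 108 CPM (92.0 to 126), Mfng in endothelial cells at 64.3 CPM (58.3 to 70.8), while Rfng, at 32.7 CPM in astrocytes (24.3 to 43.1) and 24.1 CPM in neuroblasts (20.6 to 27.9), did not differ between these beyond counting error (ratio 1.36, 0.971 to 1.87). Of the cleavage enzymes, 2 of 9 were past 2-fold in endothelial cells (Adam10 and Psen2), against 8.57% of all genes, and none elsewhere, against 5.51% to 7.92%. Their median log2 fold was 0.24 in endothelial cells and -0.53 in progenitors, against -0.27 and -0.09 over all genes.

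**Figure D5:**
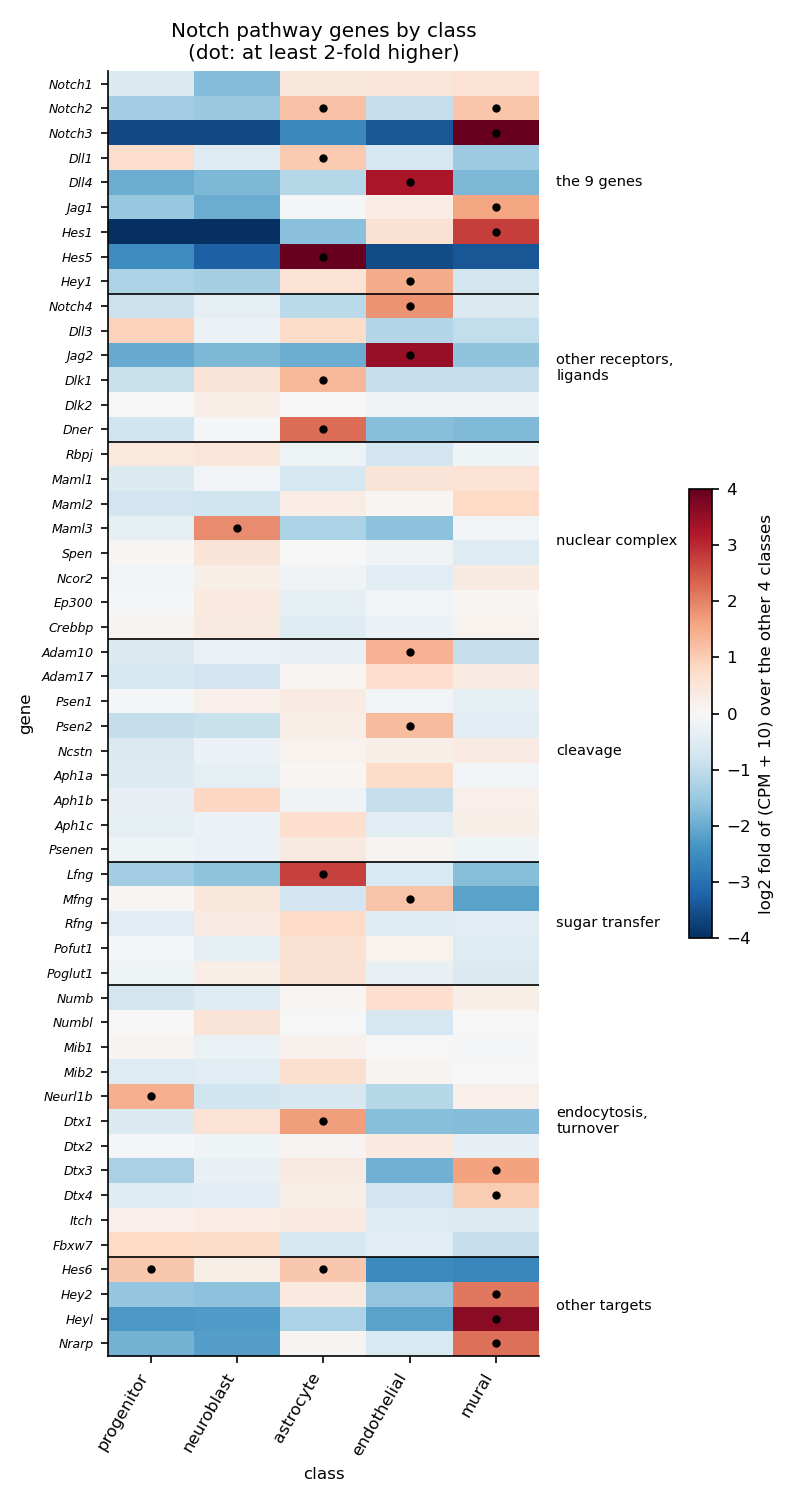
Log2 fold of CPM + 10 in each class over the mean of the other 4, for the 9 genes and the 43 other pathway genes with enough UMIs, grouped by role; the colour scale ends at 4 in each direction and a dot marks at least 2-fold higher. Among the 9 genes the astrocyte, endothelial and mural columns carry 3, 2 and 4 dots, and the progenitor and neuroblast columns 0.

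Genes with the most similar pattern to each member were taken over 10 classes (mural cells split in pericytes and smooth muscle cells, plus 4 other classes) by the Pearson correlation of log2(CPM + 10), among 7017 genes. The points are classes that share libraries, so the coefficients are descriptions. Heyl followed Notch3 most closely (0.998), before Zic4 and Pcolce, and was 145 CPM (121 to 173) in mural cells. For Hes5 they were 2810459M11Rik (0.998), Dbx2 and Wnt7b, and for Dll4 Adgrl4 (0.988), Unc45b and Fmo2. Hes1 was led by Lamb2 (0.987), Cebpd and Zbtb4, and Jag1 by Vcl (0.973), with Hes1 itself at the second place. For Notch2 they were Pbxip1 (0.987), Bcar3 and Pygm, for Hey1 Kifc3 (0.957), Mfsd2a and Plcb1, and for Dll1 Exoc4 (0.964), Tsfm and Ppid. Notch1 had no close match, with Mxra7 at 0.899 before Trak1 and Axin2.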

How the data were processed

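Cells of murine brain were captured on a 10x Chromium instrument with 3' v3 chemistry, 1 library per condition and about 12000 cells loaded per channel. The authors made and deposited 1 matrix of UMI counts, whole numbers per gene and barcode with no normalization per cell. Cell Ranger 3.1.0 with the STAR aligner mapped the reads, and reads were down-sampled where needed to even out depth between libraries, so depth per cell does not show how deeply each library was sequenced. The submitters' processing notes name mm10 and Seurat 3.1.1. The methods give 8 mice per condition, and the sources used here do not say how their cells were combined.

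From the counts, cells with at least 1000 UMIs and at most 30% mitochondrial UMIs were classed by raw marker UMIs: for astrocyte, endothelial, mural and neuroblast cells at least 3 marker genes and 5 UMIs, for progenitors at least 2 genes and 3 UMIs of the neuroblast list and 3 genes and 5 UMIs of the cell cycle list. Neuroblasts had at most 1 cell cycle UMI. Cells passing more than 1 gate were left out. The members, marker lists and pathway list were chosen with earlier results of these data known. Named genes are the members, the genes past 2-fold in each class with the highest CPM (2 per class), Hes6, Notch4, Rbpj, Lfng, Mfng and Rfng, and the 3 most similar genes per member; the other genes past 2-fold are named because their counts are small, after their values were seen. The results of 1 further gene are not reported here. Levels are CPM of summed counts, folds use CPM + 10, and a count of 0 allows up to 3 counts. Thinning drew 1000 UMIs per cell, and no cell was shallower. Scrublet in Scanpy 1.11.5, run per suffix with an assumed rate of 10%, called 4.10% to 5.14% of barcodes with at least 1000 UMIs as doublets, and these were left out only as an alternative. Intervals of ratios are exact for a pair of Poisson counts. Of 31053 identifiers, 30934 were in GENCODE M21. Gates, levels and folds were tested on simulated data. Python 3.11.15, NumPy 2.4.6, pandas 2.3.3, SciPy 1.17.1 and Matplotlib 3.10.9 were used. Alternatives are listed with their effects at the end.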

Additional observations from a re-analysis of the deposited data

Results flagged for a closer look

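Cells that passed exactly the progenitor and astrocyte gates were left out of the classes, and they held Dll1 above both. In these 40 cells Dll1 was at 120.8 CPM (96.6 to 149) with a UMI in 60% of cells, against 32.5 CPM in progenitors and 39.9 CPM in astrocytes. Hes6 was at 528 CPM and Egfr, a receptor of activated progenitors, at 229 CPM, while Hes5 was at 37.9 CPM (25 to 55.2) and Aldoc at 2.81 CPM. They came from all 3 libraries (9, 11 and 20 cells) and had a median of 17504.5 UMIs.

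Cells that passed exactly the endothelial and mural gates were also left out. In these 294 cells, of which 288 carried suffix 3, Notch3 was at 127.5 CPM with a UMI in 59.9% of cells, and Dll4 was at 131.1 CPM with a UMI in 61.6%. Notch3 was at 447 CPM in mural and 1.53 CPM in endothelial cells, and Dll4 at 2.30 and 119 CPM. Their median of 11860.5 UMIs was above the 5394 of endothelial and 3614 of mural cells. Of all 2628 cells passing more than 1 gate, Scrublet called 47.5% as doublets, against 0.278% to 2.39% within the 5 classes.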

How the results depend on the processing

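No paired analysis was possible because each condition has 1 library and no test was run. Of the alternative values, 76 member levels, 65 counts, 65 shares and 105 subset ratios stayed within the main interval (for counts, within 1.5 times), and 31, 5, 25 and 13 moved, with 3 ratios reversed. Leaving out suffix 1 or 2 removes 2 or 15 endothelial cells and 2 or 22 mural cells. Values of those classes therefore had little room to move in these settings. Depth limits the low values, which rest on under 10 UMIs in many classes, and the cause of the shifts below was not tested unless the setting itself shows it. With cells passing more than 1 gate kept, Notch1, Notch3 and Hes1 in mural cells were 242.1, 287.2 and 490.7 CPM, and the Notch3 ratio of smooth muscle to pericyte was 1.27. Under the upper limits on UMIs and genes of the methods, Dll4 in endothelial cells was 135.3 and Hes5 in astrocytes 508.2 CPM, and with a mitochondrial limit of 10% Dll1 in astrocytes was 51.65 CPM. Thinned to 1000 UMIs, mural Notch3, Jag1 and Hes1 were 535.9, 62.20 and 641.1 CPM, astrocyte Dll1 and Hes5 20.65 and 474.9 CPM, endothelial Dll4 and Hey1 138.7 and 65.90 CPM, 1 member, Dll1, was past 2-fold in progenitors, and the Hey1 ratio of astrocytes with to without Agt was 0.778. As a mean over cells, Dll1 was 17.33, Dll4 138.4, Hes1 662.9 and Hes5 516.5 CPM. In alternatives chosen after seeing the data, weighting suffixes equally gave Notch1 158.9, Notch3 386.1 and Hes1 810.3 CPM in mural cells and Hes5 473.4 CPM in astrocytes, and astrocytes with no cell cycle UMI had 11.83 CPM of Dll1 (5.44 CPM without suffix 1). With a pseudocount of 50 CPM, 1 member was past 2-fold in astrocytes, 1 in endothelial cells and 2 in mural cells.

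Leaving out each suffix in turn gave ranges of 96.42 to 220.3 CPM for Notch1, 289.2 to 472.9 for Notch3 and 704.0 to 867.7 for Hes1 in mural cells. In astrocytes they were 25.12 to 54.86 for Notch2, 30.97 to 61.22 for Dll1 and 306.2 to 616.9 for Hes5, and in endothelial cells 61.24 to 119.8 for Dll4 and 12.25 to 47.65 for Hey1, with 1 to 2 members past 2-fold. Without suffix 3, 17 endothelial and 24 mural cells remained, too few to split the vascular classes. The values without that library were the low ends for Notch1, Notch2, Notch3, Dll4 and Hey1 and the high ends for Dll1, Hes1 and Hes5, and the Hes5 low end was without suffix 2. The Hes5 ratio of astrocytes with to without Agt was 0.853 without suffix 3 and 2.485 without suffix 2.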

Other observations

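Some classes outside the 5 also held members. In the 310 oligodendrocyte precursors, Notch1 was at 96.3 CPM (83.0 to 111), Hes5 at 108 CPM, Dll1 at 32.3 CPM (24.8 to 41.3) and Hey1 at 27.1 CPM, and each was seen in all 3 libraries. In the 210 cells passing the choroid plexus gate, Notch1 was low at 2.60 CPM (1.19 to 4.93), but Notch2 was at 19.9 CPM (15.5 to 25.2) with a UMI in 20.95% of cells. Hes1 was at 43.6 CPM (36.9 to 51.1) in these cells, with 20.2 CPM in suffix 1 and 65.2 CPM in suffix 2, and Hes5 and Dll1 had no UMI, which allows up to 0.866 CPM.

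In microglia, the largest class with 10943 cells, Notch1, Notch2 and Hes1 were all higher in suffix 3 (48.6, 49.7 and 32.7 CPM) than in suffix 1 (26.8, 17.6 and 6.74 CPM) and suffix 2 (24.5, 15.6 and 7.03 CPM). The condition of these libraries is not given, and the difference was not tested.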
